A study of Mus musculus with 4 samples.

Results

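The neuroendocrine mimetic medullary thymic epithelial cells (mTECs) described here were 170 of the 28055 cells kept from 4 single-cell RNA libraries of mouse thymic epithelium. A cell was a member when it held at least 1 unique molecular identifier (UMI, the count of 1 captured RNA molecule) of at least 5 of 9 genes, namely Chga, Chgb, Car8, Snap25, Insm1, Ret, Stxbp5l, Scg5 and Resp18. Cells entered with at least 200 detected genes and at most 25% of their UMIs from mitochondrial genes. Members therefore were selected on the measured levels of these 9 genes, and the values of the 9 genes are a description, with no test. The rule found 80 members among the 10218 cells of WT-Control and 48 among the 7164 of WT-RANKL-Ab, the libraries of wild-type mice. It found 39 among 8591 cells and 3 among 2082 in the libraries of Cd40-deficient mice, named Cd40-/- Control and Cd40-/- RANKL-Ab. Where 4 values follow each other below they keep this order, and 3 values leave out Cd40-/- RANKL-Ab.

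The libraries came from C57BL/6 mice 6 weeks old, either wild-type (WT) females that were purchased or Cd40-deficient (Cd40-/-) animals, which lack the receptor for CD40 ligand. Each library pooled the EpCAM+ CD45- TER119- thymic cells of 3 mice. At 4 weeks of age, 2 weeks before the thymus was taken, the mice had received 5 mg/kg of a neutralizing antibody against RANKL (RANKL-Ab, clone OYC1), the ligand of the receptor RANK, or a control immunoglobulin G (Control) under the skin. With 1 library per condition no comparison between conditions has replicates, so no p-value is given, and every interval below covers counting error only.

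Mimetic mTECs are thymic epithelial cells that switch on the program of a cell type from outside the thymus, which displays the proteins of that tissue to developing T cells. Neuroendocrine cells store peptide hormones in dense-core granules packed with granins, cleave and amidate the hormones inside them, and release them when calcium enters and SNARE proteins fuse the granule with the cell membrane. RANK and CD40 are receptors of the tumor necrosis factor family that activate NF-kappaB in mTECs and drive their maturation, including expression of the autoimmune regulator Aire.

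The genes that gave the cells their name are granin and secretion genes. Chga (chromosome 12, positions 102554969 to 102565028, mm10) encodes the granule protein chromogranin A, and Chgb (chromosome 2, 132781278 to 132795079) encodes chromogranin B. Scg2 (chromosome 1, 79434669 to 79440120), the gene of secretogranin II, is a further classical granin and was not part of the rule. Their promoter windows, from 250 bases before to 50 bases after the RefSeq transcription start (GRCm38.p6), are printed because granin genes gave these cells their name. Capitals mark the cyclic AMP response element TGACGTCA and the E-box CAGCTG, each searched on both strands, whose letters do not overlap in any of the 3 windows.
Chga, chr12:102554691-102554990, plus strand: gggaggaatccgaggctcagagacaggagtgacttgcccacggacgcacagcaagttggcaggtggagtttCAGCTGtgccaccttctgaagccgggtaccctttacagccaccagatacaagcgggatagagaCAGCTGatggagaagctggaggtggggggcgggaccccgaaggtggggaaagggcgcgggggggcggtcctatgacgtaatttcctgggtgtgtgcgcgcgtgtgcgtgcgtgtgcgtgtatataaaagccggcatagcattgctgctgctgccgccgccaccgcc
Chgb, chr2:132781392-132781691, plus strand: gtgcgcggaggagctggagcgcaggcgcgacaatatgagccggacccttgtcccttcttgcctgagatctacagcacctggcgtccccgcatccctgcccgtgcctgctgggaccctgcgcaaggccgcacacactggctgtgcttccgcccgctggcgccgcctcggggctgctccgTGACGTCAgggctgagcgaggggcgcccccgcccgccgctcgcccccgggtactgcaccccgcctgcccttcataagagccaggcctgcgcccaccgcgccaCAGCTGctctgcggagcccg
Scg2, chr1:79439977-79440276, minus strand: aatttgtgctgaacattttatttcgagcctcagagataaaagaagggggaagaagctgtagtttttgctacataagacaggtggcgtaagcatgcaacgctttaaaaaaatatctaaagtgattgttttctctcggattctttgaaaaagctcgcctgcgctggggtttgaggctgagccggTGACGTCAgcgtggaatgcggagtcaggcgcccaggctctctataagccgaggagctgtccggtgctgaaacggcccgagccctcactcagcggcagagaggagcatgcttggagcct
The TGACGTCA element began 72 bases upstream of the start in Chgb and 68 bases upstream in Scg2, and the Chga window held CAGCTG 179 and 116 bases upstream. Of 32851 promoter windows of this length, 588 (1.79%) held TGACGTCA and 5355 (16.3%) held CAGCTG. Only 5 of the 9 rule genes had a window in the table, of which 1 held TGACGTCA and 3 held CAGCTG. Among 13 of 17 genes of granule cargo and prohormone processing with a window, 3 held TGACGTCA and 4 held CAGCTG. These matches are a description of letters, not evidence of binding.

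Depth differed between the libraries. The kept cells held 95277834, 48640841, 66295255 and 19153685 UMIs, of which the members held 884812, 270263, 240503 and 31793. The median member held 8167.5, 4360.5, 5181 and 5771 UMIs, beside 7621.5, 6086, 6267 and 7531.5 for all kept cells. Of 27500 distinct barcodes 547 occurred in at least 2 libraries, 9 member barcodes also occurred among the kept cells of another library, and no barcode was a member in 2 libraries. T cell markers (10 genes such as Cd3e and Lck) summed to 13.6, 11.1, 29.1 and 0 CPM (UMIs of the genes per 1000000 UMIs of the cells together) in the members, against 110, 577, 661 and 1303 CPM in the other cells, and no member carried 3 or more of these genes. Cd3e, Cd8b1 and Rag1 had no UMI in any member. Of the members, 7 also met a rule of the same form for tuft cells, 1 that for microfold cells and 5 that for ciliated cells, which makes 13 in all.

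The members were epithelial by their markers. A UMI of Epcam, the adhesion molecule used in the sort, was found in 79 of 80, 43 of 48, 36 of 39 and 3 of 3 members, and Krt8, a simple-epithelial keratin, in 78, 48, 39 and 3. Vwf, a gene of endothelial cells, stood above the other cells, but Cdh5 and Kdr, which define endothelium, were at 0 in all members. Pecam1, the remaining gene of this list of 4, had UMIs in members of each library except WT-RANKL-Ab. The 4 genes summed to 74.6, 99.9, 108 and 62.9 CPM in the members, against 10.7, 10.4, 14.3 and 10.5 CPM in the other cells. Sox10, which defines nerve glia, had 1 UMI in all members together. The 5 nerve glia genes listed summed to 20.3, 7.40, 49.9 and 0 CPM in the members, against 16.5, 6.80, 18.7 and 7.32 CPM in the other cells. Among them, S100b had 11 UMIs in WT-Control members and Foxd3 had 8 in those of Cd40-/- Control.

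The threshold of 5 genes cut through a continuum rather than a gap. Exactly 5 rule genes were found in 60 members, 6 in 47, 7 in 50, 8 in 12 and all 9 in 1. Just outside lay 147, 25, 60 and 0 cells with 4 of the genes. In WT-Control the 29 cells with exactly 5 genes had 2367 CPM of the rule genes together and the 147 cells with 4 genes had 1404 CPM. Car8 stood at 216 CPM in the former and 72.3 CPM in the latter. An Aire UMI was present in 17 of those 29 cells and in 104 of the 147. In WT-RANKL-Ab the 19 cells with 5 genes and the 25 with 4 genes had 4178 and 3600 CPM, and 1 and 5 of them an Aire UMI. In Cd40-/- Control the 12 and 60 cells had 2898 and 1945 CPM, and 2 and 31 an Aire UMI.

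A subset of the members also carried Aire, whose protein releases tissue-restricted genes in mTECs. Aire UMIs were found in 29 of 80, 1 of 48, 5 of 39 and 0 of 3 members. In all kept cells the share with an Aire UMI was 44.0%, 7.62%, 32.8% and 0.817%. The 29 members of WT-Control with an Aire UMI were deeper (median 13055 UMIs, against 6089 in the other 51) and had less of the rule genes (2090 against 4860 CPM). They had more RNA of Pyy, a gut hormone (930 against 61.0 CPM, with 359 of the 481 Pyy UMIs in 1 cell), and of the proliferation gene Mki67 (104 against 7.63 CPM). They had less of Iapp, the islet hormone amylin (336 against 1863 CPM). Of the 733 Iapp UMIs in the other 51, 1 cell held 316 and another 172. The level of the rule genes is among the values that chose the cells, and deeper cells can reach 5 of them at a lower CPM. Ratios for the 51, 47, 34 and 3 members without an Aire UMI are given beside many of the main ones. The division was added after the values had been seen.

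**Figure D1:**
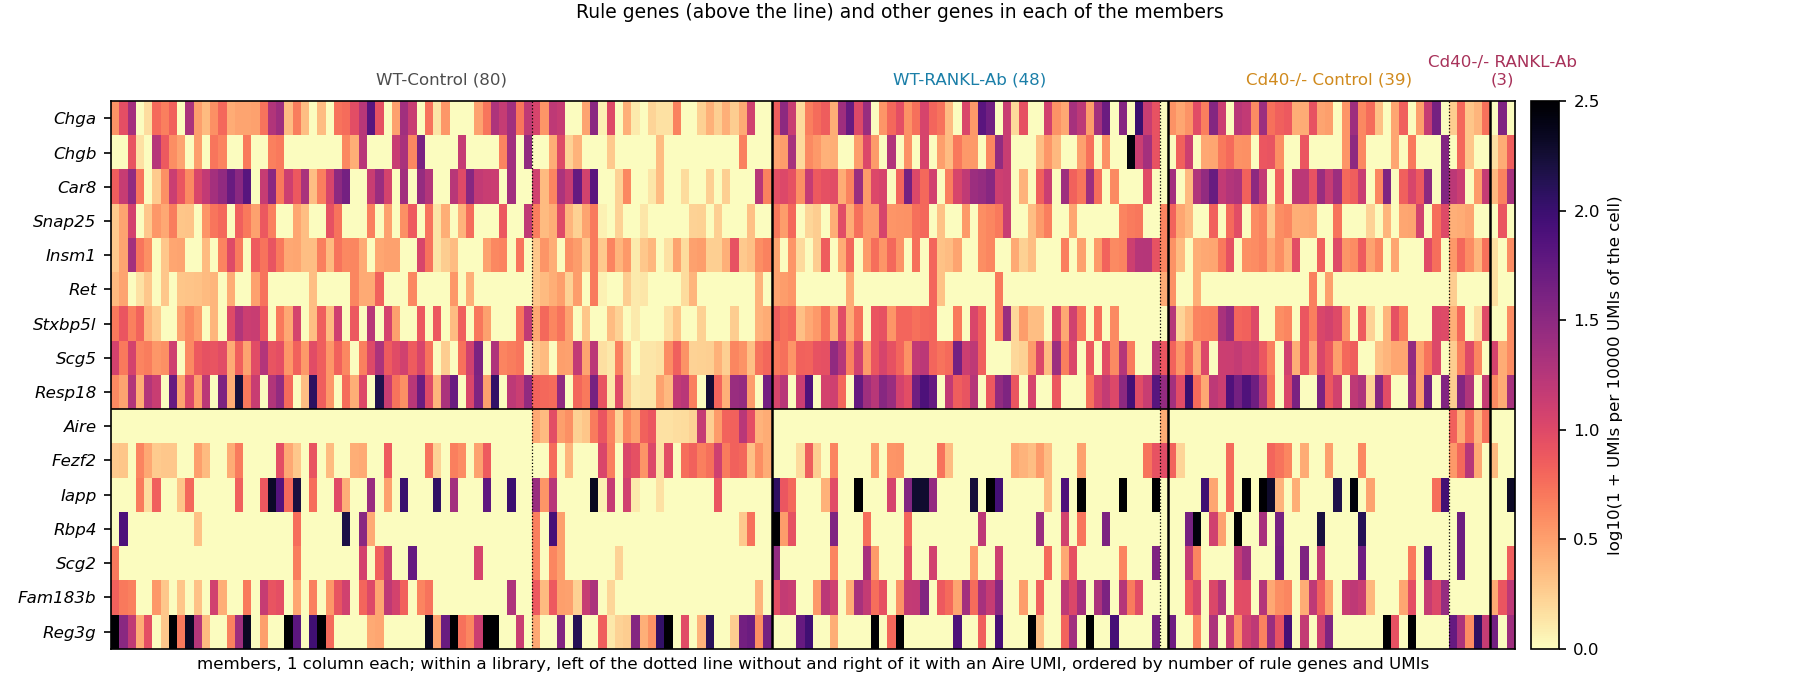
Each column is 1 of the 170 members, grouped by library, and each row a gene, with the 9 rule genes above the line and other genes below; colour gives log10(1 + UMIs of the gene per 10000 UMIs of the cell), with values above 2.5 drawn as 2.5. Within a library the members right of the dotted line carry an Aire UMI (29, 1, 5 and 0), and the rule genes are spread over different members rather than all present in each.

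The levels of the rule genes in the members varied by gene and by library. Chga stood at 327, 973, 503 and 661 CPM in the 4 libraries. Chgb stood at 136, 514, 270 and 126 CPM, and Scg5, which encodes the chaperone 7B2 of a prohormone convertase, at 344, 714, 470 and 818 CPM. For Chga, Chgb and Scg5 the WT-Control library was the lowest of the 3 libraries with more than 3 members and WT-RANKL-Ab the highest. Car8, a carbonic anhydrase-related protein, stood at 671, 740, 1035 and 377 CPM, and Resp18, a granule protein of endocrine cells, at 1312, 1524, 1617 and 472 CPM. Insm1, a zinc-finger transcription factor of endocrine differentiation, had 176, 196, 241 and 62.9 CPM. Snap25, a SNARE of the cell membrane, had 102, 167, 175 and 126 CPM. Stxbp5l, the SNARE regulator tomosyn-2, had 201, 285, 366 and 31.5 CPM. Ret, the receptor kinase for ligands of the GDNF family, had 53.1, 29.6, 24.9 and 31.5 CPM on 47, 8, 6 and 1 UMIs. Ret was highest in WT-Control, whereas the other 8 genes were lowest there among the 3 larger libraries.

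Single members differed widely in these genes. Per 10000 UMIs of the cell, Chga ran from 0 to 64.9 with a median of 2.07 in WT-Control, from 0 to 99.2 with a median of 5.73 in WT-RANKL-Ab, and from 0 to 42.0 with a median of 2.97 in Cd40-/- Control. Chgb ran from 0 to 272 in WT-RANKL-Ab, where 1 cell held 69 of the 139 Chgb UMIs. The range of Resp18 was 0 to 178, 0 to 86.6 and 0 to 99.7 in the same 3 libraries. Chga was found in 138 of the 170 members, Chgb in 85 and both in 69, whereas Car8 was found in 129, Stxbp5l in 114 and both in 92.

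The share of the library-wide UMIs of the rule genes that lay in members is a description, since members were chosen for holding these genes. Members held 0.929%, 0.556%, 0.363% and 0.166% of all kept UMIs, and 9.91%, 14.5%, 6.84% and 16.9% of the UMIs of the 9 genes. For Chga the shares were 10.5%, 70.9%, 4.44% and 56.8%, for Car8 51.3%, 56.0%, 52.5% and 92.3%, and for Stxbp5l 49.4%, 66.4%, 29.7% and 50%. Most Chga UMIs thus lay in members in the RANKL-Ab libraries and in other cells in both Control libraries, but in Cd40-/- RANKL-Ab the members' UMIs were 21, all in 1 cell. Chga stood at 26.0 and 39.5 CPM in the other cells of WT-Control and Cd40-/- Control, against 2.23 and 0.837 CPM in those of WT-RANKL-Ab and Cd40-/- RANKL-Ab, whose shares of cells with an Aire UMI were also the lower ones. The part of Aire-expressing cells in this was not tested.

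Tuft-rule cells, another mimetic class, are given as a comparison for the shares of cells with a UMI. They did not lack every rule gene, and their shares are therefore not a level of free RNA alone. Tuft-rule cells that were also members were left out of these shares. Members were chosen for UMIs of the rule genes before thinning. For those genes a higher share in members was thus fixed in advance, and thinning afterwards does not remove this. With each cell thinned to 1000 UMIs, which left out 1 shallower member of WT-Control and 1 of WT-RANKL-Ab, Chga was detected in 36.7%, 46.8% and 35.9% of the members (78.8%, 83.3% and 87.2% unthinned), and in 0.821%, 0.340% and 2.32% of the tuft-rule cells (4.49%, 0.337% and 5% unthinned). Car8 was detected in 45.6%, 44.7% and 59.0% of the thinned members and in 0.411%, 0% and 1.16% of the thinned tuft-rule cells. Iapp, which the rule did not use, was detected in 24.1%, 31.9% and 23.1% of the thinned members and in 2.05%, 0.170% and 1.54% of the thinned tuft-rule cells. Scg5 and Resp18 were found in 32.9% and 50.6% of the thinned WT-Control members (90% and 86.2% unthinned). In the thinned tuft-rule cells of that library they were found in 6.16% and 6.37% (32.0% and 18.4% unthinned). The median depths before thinning were 8167.5, 4360.5 and 5181 UMIs in the members. They were 7491, 6369 and 5817.5 UMIs in all tuft-rule cells, with those that were members included.

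The question the 4 libraries put to these cells is how many remain, and what they express, when RANKL signals, CD40 or both are missing. In wild-type mice members made up 0.783% of the cells with control antibody (95% Clopper-Pearson interval 0.621% to 0.973%) and 0.670% with RANKL-Ab (0.494% to 0.887%). In Cd40-/- mice the shares were 0.454% (0.323% to 0.620%) and 0.144% (0.0297% to 0.421%). Relative to WT-Control the log2 ratio of the shares was -0.22 in WT-RANKL-Ab, with a counting interval (-0.77 to 0.31) that spans no difference. It was -0.79 (-1.38 to -0.22) for Cd40-/- Control and -2.44 (-4.75 to -0.84) where antibody and Cd40 deficiency were combined. Between the Cd40-/- libraries the ratio of RANKL-Ab to Control was -1.66 (-3.99 to -0.0022), on 3 cells.

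These shares depend on the Aire-containing members and on depth. Members without an Aire UMI made up 0.499% (0.372% to 0.656%), 0.656% (0.482% to 0.871%), 0.396% (0.274% to 0.553%) and 0.144% of the 4 libraries. The WT-RANKL-Ab ratio then was 0.39 (-0.21 to 1.00), higher rather than lower than WT-Control, and the Cd40-/- Control ratio was -0.33 (-1.01 to 0.32). When each cell was thinned to 2000 UMIs before the rule was applied, 28 of 8958, 21 of 5927, 15 of 6900 and 0 of 1813 cells met it, and the WT-RANKL-Ab ratio was 0.18 (-0.71 to 1.05). With 4 genes in place of 5 the ratio was -1.12 (-1.53 to -0.74). The direction of the WT-RANKL-Ab share is thus not settled by these data, whereas the ratio of Cd40-/- RANKL-Ab was below 0 under each alternative that gave one.

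The other mimetic classes are given as a scale for these shares. Under rules of the same form, tuft cells made up 4.83%, 8.29%, 3.05% and 2.79% of the libraries. Microfold cells, which sample antigen at mucosal surfaces, made up 5.45%, 0.935%, 3.49% and 0.0480% (1 cell). Ciliated cells made up 0.832%, 0.140%, 0.570% and 0% (0 of 2082, where a floor of 3 cells allows up to 0.144% and the exact interval reaches 0.177%). In WT-RANKL-Ab the log2 ratios to WT-Control were 0.78 (0.60 to 0.95) for tuft, -2.54 (-2.93 to -2.18) for microfold and -2.58 (-3.69 to -1.63) for ciliated cells, beside -0.22 (-0.77 to 0.31) for the neuroendocrine members. That interval overlapped none of the 3 under the rule of 5 genes, but without the Aire-containing members (-0.21 to 1.00) and after thinning to 2000 UMIs (-0.71 to 1.05) it overlapped the tuft interval. In Cd40-/- Control the 4 classes lay between -0.79 and -0.54. T cells by their markers took 1.60%, 6.14%, 9.94% and 15.5% of the libraries. With them left out of the denominator the neuroendocrine ratios were -0.16, -0.66 and -2.22. A lower share of cells in a sorted suspension cannot be told apart from a higher number of the remaining cells.

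**Figure D2:**
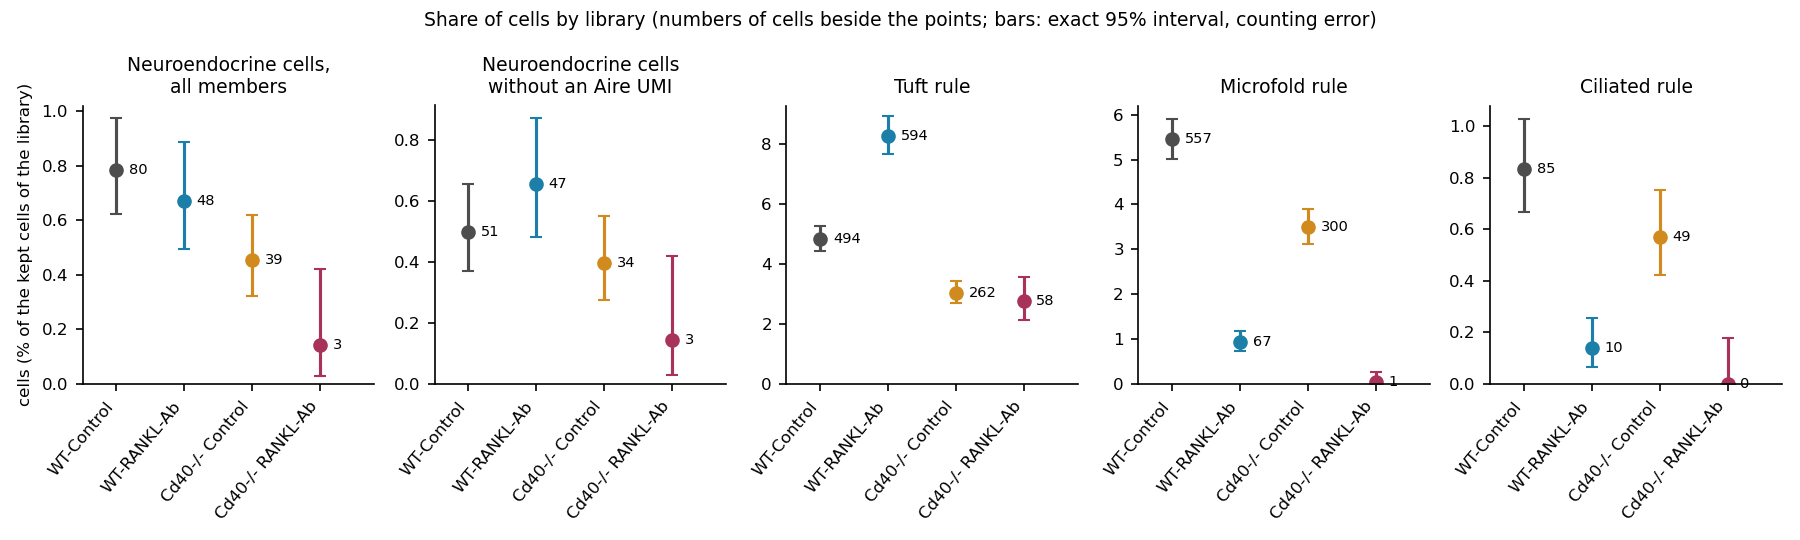
Points give the cells that met each rule as a percentage of the kept cells of a library, with the number of cells beside each point and exact 95% intervals for counting error; the panels have their own axes from 0. Neuroendocrine members lie at 0.783%, 0.670%, 0.454% and 0.144%, and the intervals of WT-Control and WT-RANKL-Ab overlap.

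Outside the rule, the members differed from the other cells of their own library in a repeated set of genes. Of 2586 genes with 50 or more UMIs in WT-Control members, 64 (2.47%), 89 (3.44%) and 103 (3.98%) were past 4-fold higher in members of the 3 larger libraries, and 38 were so in each of them. These are log2 ratios of CPM with 10 CPM added. They are descriptions, since members were chosen in the same cells, and the genes below are the 25 with the largest smallest ratio over the 3 libraries.

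Speer4c, Clca3b and Cd177 led the 25. Speer4c, of a family of spermatogenesis-associated genes with near-identical copies whose reads the counting could split, stood at 423, 389, 761 and 472 CPM in the members and at 4.50, 1.24, 6.75 and 0 in the other cells. Clca3b, of the family of calcium-activated chloride channel regulators, stood at 539, 503, 1692 and 31.5 CPM against 9.08, 7.24, 10.6 and 0.314. Cd177, a surface protein known from neutrophils, stood at 278, 322, 387 and 94.4 CPM against 1.93, 1.12, 1.82 and 0. Each was above the other cells in all 4 libraries, with log2 ratios of at least 4.90, 4.85 and 4.59 in the 3 larger ones. Their UMIs came from many members: Speer4c from 35, 22, 24 and 2 of them and Clca3b from 44, 18, 29 and 1.

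Genes of excitation and granule release were among the 25. Cacna2d1, an auxiliary subunit of voltage-gated calcium channels, stood at 235, 522, 445 and 472 CPM against 8.81, 7.94, 12.3 and 5.18 CPM in the other cells. Cplx2, the complexin that holds and releases SNARE complexes, stood at 111, 163, 146 and 126 CPM against 7.41, 7.61, 4.97 and 7.27 CPM. Celf3, an RNA-binding protein of neurons, had 67.8, 59.2, 70.7 and 31.5 CPM against 2.88, 0.765, 1.92 and 0.157 CPM. Ffar2, the receptor for short-chain fatty acids on gut endocrine cells, had 58.8, 148, 112 and 0 CPM against 1.94, 0.372, 1.30 and 0.105 CPM. Dnajc12, a co-chaperone of aromatic amino acid hydroxylases, had 284, 344, 424 and 189 CPM against 27.0, 13.1, 27.6 and 12.1 CPM.

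Other genes of the 25 are known from epithelial and secretory tissues. Rbp4, the plasma retinol carrier, stood at 292, 1095, 2669 and 0 CPM but came from 11, 11, 10 and 0 members, and 1 cell held 218 of the 296 UMIs in WT-RANKL-Ab. Klk1, tissue kallikrein, stood at 370, 170, 2349 and 0 CPM, with 224 of 565 UMIs of Cd40-/- Control in 1 cell. Pigr, the transporter of polymeric immunoglobulins, had 177, 115, 391 and 94.4 CPM. Reg3g, an antimicrobial lectin of the gut, had 7937, 2253, 1818 and 109 UMIs in 52, 16, 22 and 2 members. Its level was 8970, 8336, 7559 and 3428 CPM against 1441, 572, 1141 and 42.8 CPM in the other cells. The others reported here were Ceacam10, Tshz2, 1700016L21Rik, Tspan1, Fam183b, Cd55, Cpn1, Iapp, Fmo2, Ttc36, Vwf and Nupr1, whose smallest ratios lay between 2.34 (Nupr1) and 3.32 (Ceacam10). Tspan1 was of similar level in tuft-rule cells, at 285, 426 and 230 CPM against 279, 444 and 387 CPM in members, and so differed from the bulk of the cells more than from tuft cells. Over tuft-rule cells, the smallest ratio stayed past 4-fold for 22 of the 25 genes.

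Fam183b is counted among ciliated-cell genes, and its level in members was 149, 644, 349 and 409 CPM against 15.0, 1.32, 11.9 and 0.0523 CPM elsewhere. It was found in 37, 33, 23 and 3 members. Foxj1, the master regulator of motile cilia, stood at 5.65, 14.8, 16.6 and 0 CPM on 5, 4, 4 and 0 UMIs, and Tekt1, a cilium protein, had 1 UMI in all. The whole ciliated list of 9 genes summed to 344, 1040, 541 and 1195 CPM in the members and to 154, 124, 114 and 58.6 CPM in the other cells. Without a UMI were 1, 1, 2 and 6 of its 9 genes.

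**Figure D3:**
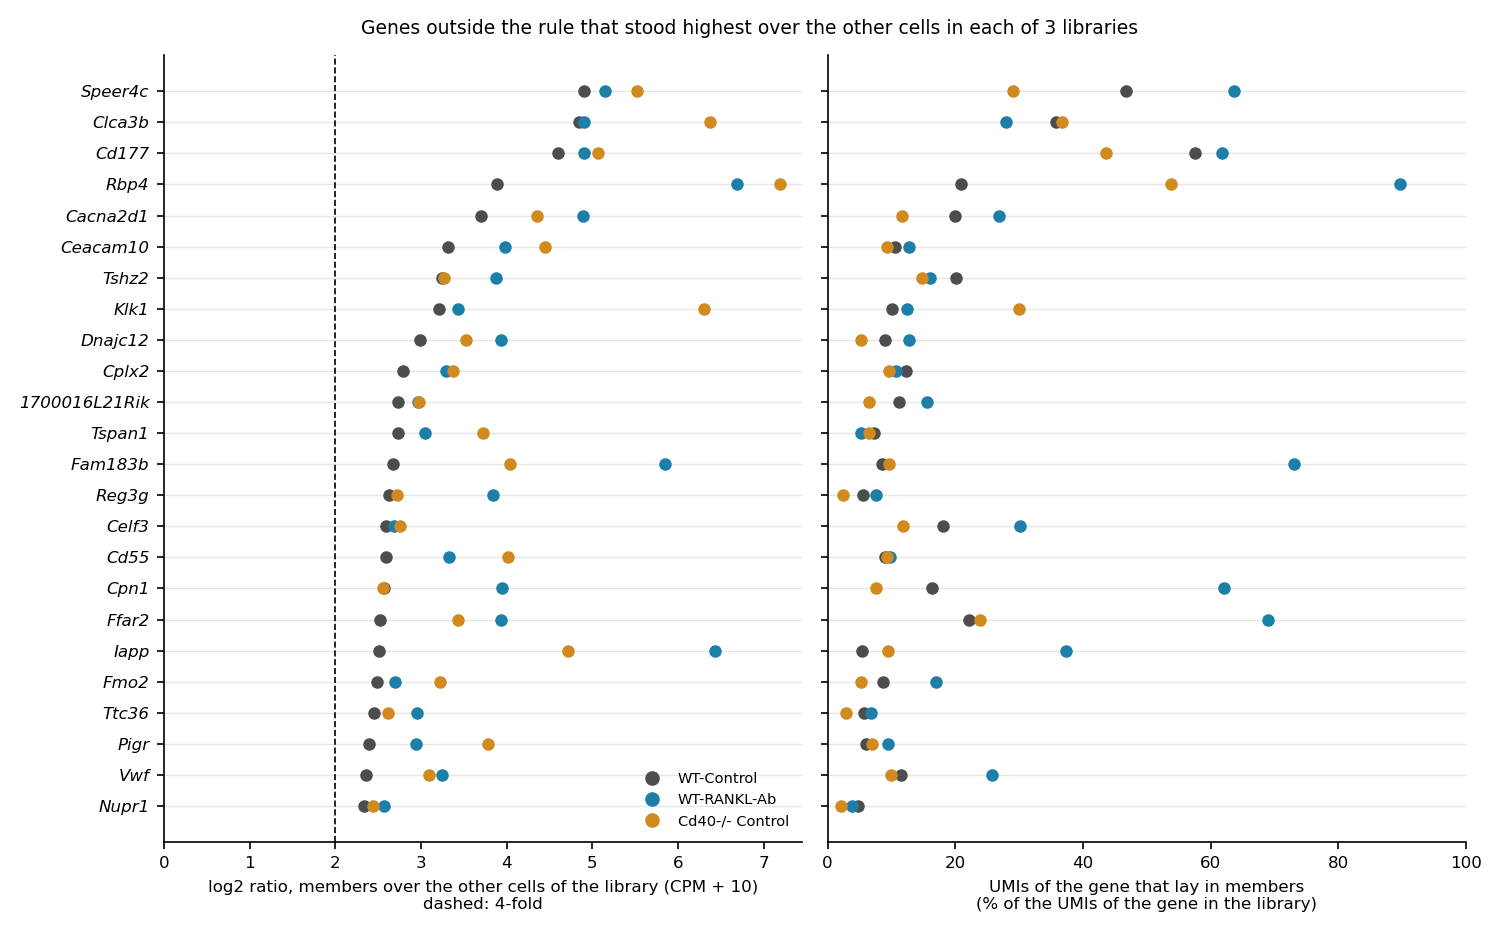
Left, for the genes reported here of the 25 outside the rule with the highest smallest ratio, the log2 ratio (10 CPM added) of members over the other cells of the same library in the 3 larger libraries, with a dashed line at 4-fold; right, the percentage of the library's UMIs of each gene that lay in members. Speer4c, Clca3b and Cd177 lie beyond 4.5 in each library.

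Gene lists were read against all genes with a UMI in the library, of which 71 of 26169 (0.271%), 204 of 21828 (0.935%) and 207 of 25492 (0.812%) were past 4-fold higher in the members, with median log2 ratios of -0.01, -0.01 and -0.02. Because 10 CPM was added and most genes are low, a share of a list past 4-fold understates differences of scarce genes.

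Among 17 genes of granule cargo and prohormone processing, 1, 4 and 6 were past 4-fold higher in the 3 libraries, with medians of 0.64, 1.28 and 1.75. Scg2 stood at 65.6, 185 and 599 CPM in the members against 4.97, 1.96 and 4.78 CPM in the other cells, and at 62.9 CPM (2 UMIs) in Cd40-/- RANKL-Ab. It was found in 11, 13, 11 and 1 members, and 17 of its 36 members also held Rbp4. Pcsk1, the convertase that cuts prohormones, had 20.3, 51.8 and 54.1 CPM on 18, 14 and 13 UMIs, against 0.953, 0.475 and 0.772 CPM. Pcsk2, the companion convertase, had no UMI in WT-Control or WT-RANKL-Ab members and 5 in Cd40-/- Control. Pam, which amidates peptide ends, stood at 156, 348 and 416 CPM against 79.9, 104 and 104 CPM. Ptprn and Ptprn2, membrane proteins of dense-core granules, had 27.1, 40.7 and 33.3 CPM and 29.4, 48.1 and 104 CPM, each against less than 3 CPM elsewhere. Slc18a2, the vesicular monoamine transporter, and Slc30a8, the granule zinc transporter of beta cells, had no UMI in any member, which allows up to 3.39, 11.1, 12.5 and 94.4 CPM in the 4 libraries.

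Of 27 genes of vesicle fusion, 1, 6 and 2 were past 4-fold higher, with medians of 0.66, 0.98 and 1.14. Syt1, a calcium sensor of release, stood at 433, 655 and 582 CPM against 184, 116 and 221 CPM in the other cells and was found in 70, 36 and 34 members. Syt7, the slower calcium sensor of endocrine granules, had 64.4, 122 and 179 CPM against 11.3, 3.12 and 12.0 CPM. Syp, synaptophysin of small vesicles, had 17.0, 92.5 and 29.1 CPM against 1.53, 1.10 and 2.18 CPM. Baiap3, a priming factor of the Munc13 family, had 6.78, 96.2 and 8.32 CPM on 6, 26 and 2 UMIs, from 17 members in WT-RANKL-Ab. Stx1a, the syntaxin partner of SNAP25, had 0, 2, 5 and 1 UMIs in the 4 libraries.

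Of 31 transcription factors known from neuroendocrine cells, 0, 4 and 7 were past 4-fold higher, with a median of 0.45 in WT-RANKL-Ab and WT-Control and 0.46 in Cd40-/- Control. Isl1, a factor of islet and motor neuron development, stood at 87.0, 226, 345 and 409 CPM against 48.6, 108, 100 and 138 CPM. The forkhead factors Foxa1 and Foxa2, which open chromatin in gut and pancreas, had 62.2, 96.2 and 83.2 CPM and 37.3, 51.8 and 62.4 CPM in the 3 larger libraries, against at most 9.78 and 2.45 CPM elsewhere. St18, a zinc-finger factor of endocrine progenitors, had 29.4, 152 and 74.8 CPM against 3.69, 7.19 and 4.22 CPM, while tuft-rule cells had 44.2, 75.8 and 73.3 CPM. Rfx6, which is needed for islet and gut endocrine cells, had 11, 9 and 8 UMIs in 10, 9 and 6 members.

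Several defining regulators of gut and pancreatic endocrine cells were scarce. Neurod1 had no UMI in WT-Control or WT-RANKL-Ab members and 17 UMIs in 2 members of Cd40-/- Control, 15 of them in 1 cell. Neurog3, which starts the endocrine fate in gut and pancreas, had 20, 1, 8 and 0 UMIs in 6, 1, 2 and 0 members. Pax6, Pax4 and Nkx6-1 had no UMI in any member, and Nkx2-2 had 8, 0, 1 and 0. Rest, the repressor of neuronal genes, stood at 9.04, 14.8 and 12.5 CPM in the members (8, 4 and 3 UMIs) against 32.6, 65.7 and 44.9 CPM in the other cells. Rest was thus lower in members of all 3 larger libraries, on few counts.

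Of 26 channel genes, 2, 5 and 4 were past 4-fold higher, with medians of 0.04, 0.37 and 0.24. Besides Cacna2d1, the channel pore gene Cacna1a stood at 50.9, 104 and 141 CPM against 12.0, 6.82 and 10.7 CPM. Scn3a, a sodium channel of embryonic neurons and islets, had 54.2, 81.4 and 108 CPM against 5.31, 1.88 and 5.77 CPM. Kcnj11, the pore of the ATP-sensitive potassium channel, had 13.6, 40.7 and 49.9 CPM on 12, 11 and 12 UMIs, against 1.09, 0.724 and 0.969 CPM. Of 19 nutrient and hormone receptors, 1, 1 and 2 were past 4-fold, which were Ffar2 and, in Cd40-/- Control, also the somatostatin receptor Sstr2 at 41.6 against 2.80 CPM.

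Of 18 genes of neuronal structure, 2, 4 and 3 were past 4-fold higher, with medians of 0.10, 0.60 and 0.56. Elavl4, a neuronal RNA stabilizer, had 50.9, 59.2 and 74.8 CPM against 1.14, 0.331 and 0.893 CPM. Tubb3, the tubulin of neurons, had 4, 2, 0 and 0 UMIs. Of 14 genes of monoamine and transmitter synthesis, 0, 1 and 1 were past 4-fold, and that gene was Ddc, the decarboxylase of serotonin and dopamine synthesis, at 40.7, 133 and 83.2 CPM against 7.21, 2.63 and 6.68 CPM. Th and Tph2, the hydroxylases that begin dopamine and brain serotonin synthesis, had no UMI in any member, and Tph1, the peripheral enzyme, had 29, 2, 4 and 0 UMIs. Of 10 ligands and co-receptors of Ret, none was past 4-fold in any library. The co-receptors Gfra4 and Gfra3 had 42, 9, 5 and 2 and 14, 1, 1 and 0 UMIs, and the ligand gene Gdnf had none.

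Peptide hormones were detected in most members but in different combinations. Of 63 listed hormones 62 were in the files, 53 had a UMI in at least 1 member and 31 in at least 5 members. The hormones together stood at 3212, 5976, 6187 and 2925 CPM in the members against 2862, 830, 2047 and 446 CPM in the other cells. The list contained 1, 4 and 7 genes past 4-fold higher and 2, 1 and 5 past 4-fold lower, with medians of -0.37, -0.05 and -0.41, which rest largely on hormones near 0. Of 34, 11 and 18 hormones with at least 5 UMIs in the members, 12, 9 and 12 had a higher CPM in them than in the other cells. A member of WT-Control held a median of 4 different hormones (at most 14), and members of WT-RANKL-Ab and Cd40-/- Control held a median of 2 (at most 6 and 15), in cells of lower depth. No hormone UMI was seen in 6, 6, 4 and 0 members.

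Iapp (chromosome 6, positions 142298423 to 142303961), the gene of amylin, made up much of this signal. It had 898, 1217, 721 and 70 UMIs in 31, 19, 13 and 1 members, or 1015, 4503, 2998 and 2202 CPM, against 170, 42.2, 105 and 0.209 CPM in the other cells. The top cell held 316, 386, 212 and 70 of these UMIs, and 14, 12, 7 and 1 members held 10 or more. Iapp was thus strong in a minority of members in each library. Chgb was found in 36 of the 64 members with Iapp.

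Ghrl, the gene of ghrelin, had 42, 168, 18 and 0 UMIs in 2, 7, 2 and 0 members, and 125 of the 168 in WT-RANKL-Ab came from 1 cell. In that library the 48 members held 91.8% of all Ghrl UMIs, whereas in WT-Control and Cd40-/- Control they held 4.43% and 6.32%. Ghrl and Iapp were found together in 3 of the 11 members with Ghrl. Pyy (peptide YY) had 481, 41, 165 and 0 UMIs in 11, 1, 5 and 0 members, and Ppy (pancreatic polypeptide), its neighbour on chromosome 11, had 257, 0, 134 and 0 UMIs in 8, 0, 3 and 0 members. Of the 17 members with Pyy and the 11 with Ppy, 9 held both. The 2 genes lie at 102106676 to 102107832 and 102099930 to 102101319 on the minus strand.

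Other hormones were concentrated in single cells or were low. Gcg (glucagon) had 110 UMIs in Cd40-/- Control, 109 of them in 1 cell, and Ins2 (insulin) had 77 there, 68 of them in 1 cell. Guca2b (uroguanylin) was spread more widely, over 19, 5, 10 and 1 members with 139, 24, 56 and 2 UMIs. The neuropeptide genes Calca and Calcb were found in 22 and 30 members of WT-Control, yet at 120 and 159 CPM they stood below the other cells there (207 and 333 CPM). Sct (secretin) stood at 53.1, 74.0 and 87.3 CPM against 95.8, 22.0 and 58.5 CPM, and so changed sides between libraries. Gal, Pomc and Cck likewise stood lower in WT-Control members (28.3, 10.2 and 17.0 CPM) than in the other cells (112, 104 and 71.1 CPM). Pth, the parathyroid hormone, had 2 UMIs in WT-Control members and Gcm2, the factor that defines parathyroid, none.

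**Figure D4:**
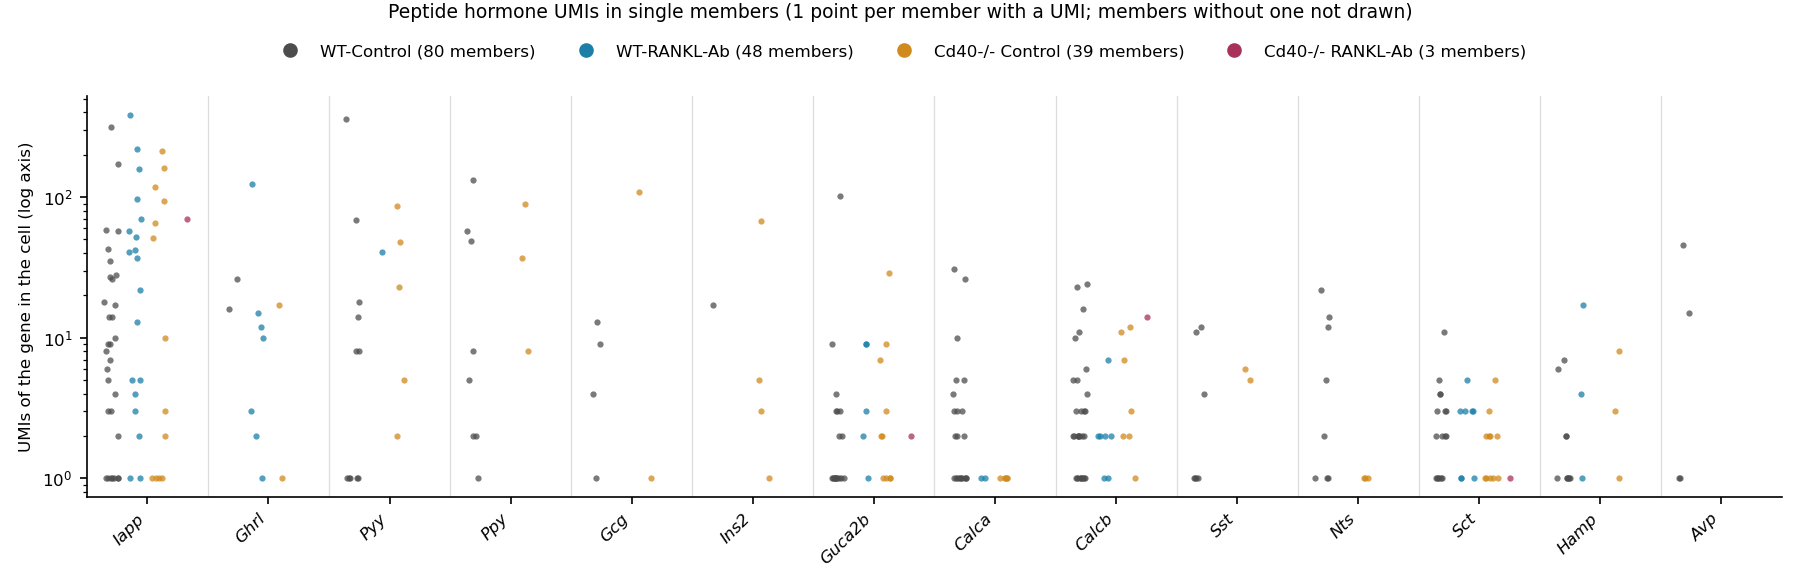
Each point is 1 member with at least 1 UMI of the hormone named on the horizontal axis, coloured by library, with the UMIs of that hormone in the cell on a log axis; members without a UMI are not drawn, and the hormones were picked after their values were seen. Iapp is spread over 31, 19, 13 and 1 members, while the highest counts of Gcg (109 UMIs) and of Ins2 (68 UMIs) each lay in 1 member of Cd40-/- Control.

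The 3 members of Cd40-/- RANKL-Ab were unlike each other. Member 1 held 5771 UMIs, 21 of them Chga and 4 Snap25, with 63 UMIs of Ccl21a, the chemokine of a major mTEC subset, and no Iapp. Member 2 was the deepest, with 22677 UMIs, of which 24 were Scg5, 462 Ccl21a, 78 the basal keratin Krt14, 101 Reg3g and 0 Chga. Member 3 held 3345 UMIs, with 70 of Iapp, 7 of Car8, 7 of Resp18, 8 of Reg3g and none of Ccl21a. Each had 6 rule genes, and Fam183b (4, 4 and 5 UMIs) was found in all 3. None had an Aire UMI, and no cell of that library held 4 or 5 of the rule genes.

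Between libraries, members of WT-RANKL-Ab differed from those of WT-Control in both directions. Of 3439 genes that had 50 or more UMIs summed over the pair of libraries, 190 (5.52%) were past 2-fold higher and 251 (7.3%) past 2-fold lower, with a median log2 ratio of 0.15. TMM scaling changed the plain ratios by -0.24, and those with 10 CPM added by less in low genes, and the split became 85 higher and 350 lower. Without the Aire-containing members 68 (3.19%) of 2132 genes were higher and 132 (6.19%) lower, with a median of 0.09. Directions below are those of CPM, and a gene within 0.24 of the 2-fold line can leave it under TMM.

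Iapp and Ghrl were the 2 hormones past 2-fold higher in WT-RANKL-Ab members. Iapp was higher by a log2 ratio of 2.14 (1.30 without Aire-containing members). Ghrl was higher by 3.46 (2.47), with UMIs in 7 of 48 members against 2 of 80. Of its 168 UMIs in WT-RANKL-Ab, 125 lay in the cell named above. Of the rule genes Chgb (1.85), Chga (1.55) and Scg5 (1.03) were past 2-fold higher, but in members without an Aire UMI the same ratios were 0.99, 1.04 and 0.38, so 1 of 8 tested rule genes remained past it. Fam183b was higher by 2.04 (1.42) and St18 by 2.04 (1.32). Sfrp5, a secreted inhibitor of Wnt, went from 38.4 to 174 CPM (1.93, and 1.46 without Aire-containing members), found in 24 of 48 members, and Pkib, an inhibitor of protein kinase A, from 18.1 to 170 CPM (2.68 and 2.18). Phlda1 (2.04) and Gmpr (1.89) were also among the 10 highest.

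Of the 10 genes highest in WT-RANKL-Ab members, 6 were also higher in its other cells, namely Prss16, Ctsl, Anxa2, Phlda1 (47.7 to 66.9 CPM), St18 (3.69 to 7.19 CPM) and Gmpr (70.0 to 178 CPM). Prss16, the thymus-specific serine protease of cortical epithelium, went from 20.3 to 426 CPM in the members and from 183 to 1234 CPM in the other cells, and 101 of its 115 UMIs in members came from 1 cell. Ctsl, the cathepsin of cortical epithelium, went from 201 to 1162 CPM in the members, with 208 of 314 UMIs in 1 cell, and from 1358 to 4466 CPM in the other cells. Anxa2 went from 123 to 611 and from 413 to 979 CPM. The 9 cortical markers summed to 1391, 3282, 2050 and 1573 CPM in the members and 3576, 11375, 9701 and 20287 CPM in the other cells, and without a UMI in members were 0, 0, 1 and 5 of them. The part of free RNA or of cortical cells in the same droplet was not tested.

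Among the genes lowest in WT-RANKL-Ab members were those of 3 lists. Of 7 enterocyte and hepatocyte genes tested 5 were past 2-fold lower and 1 higher, of 4 keratinocyte genes 3 were lower, and of 6 genes of the Aire lineage 4 were lower, beside 7.3% of all genes tested. Spink1, a secreted trypsin inhibitor, had 594 UMIs in 17 members of WT-Control and 1 in WT-RANKL-Ab, a plain log2 ratio of -7.50 (-12.81 to -5.02), with 366 of the 594 in 1 cell. Saa1, an acute-phase protein, had 273 and 0 UMIs, which is at least 27.8-fold lower against a floor of 3 UMIs per library. Apoa4, an apolipoprotein of enterocytes, had 250 and 0 UMIs, at least 25.5-fold lower, and Krtdap, a keratinocyte protein, 159 and 0, at least 16.2-fold lower. Saa3 had 444 and 3 UMIs, a plain log2 ratio of -5.50 (-7.78 to -3.94), and Sprr1a, of the cornified envelope, 228 and 2 UMIs (-5.12, -8.18 to -3.25). Wfdc21, Lypd2 and Fam25c had 134, 128 and 124 UMIs in WT-Control members and 0 in WT-RANKL-Ab, at least 13.6-, 13- and 12.6-fold lower. Without Aire-containing members 2 of 4 enterocyte and hepatocyte genes tested were lower (median -1.09, in place of -4.60), 2 of 2 keratinocyte genes and 1 of 3 of the Aire lineage, beside 6.19% of all genes tested. With 10 CPM added, Apoa4 then went from -4.87 to -2.66 and Saa1 from -4.99 to -3.11, whereas Spink1 (-5.64 and -5.24), Saa3 (-4.60 and -4.43) and Krtdap (-4.25 and -5.10) moved by less than 1.

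The same genes were lower in the other cells of WT-RANKL-Ab too. Saa1 went from 251 to 18.8 CPM there, Apoa4 from 159 to 22.7, Spink1 from 167 to 29.5 and Krtdap from 205 to 103. Aire itself went from 192 UMIs to 1 in the members (plain log2 ratio -5.87, -11.19 to -3.38) and from 334 to 34.6 CPM in the other cells. The hormones Ppy (257 and 0 UMIs, at least 26.2-fold lower) and Pyy (log2 ratio -1.78) went the same way, but Pyy stood 1.22 higher in members without an Aire UMI. All 41 Pyy UMIs of WT-RANKL-Ab members lay in 1 cell. Of 12 hormones tested 2 were past 2-fold higher and 6 lower, with a median of -0.99, beside 5.52% and 7.3% of all genes tested. In members without an Aire UMI these counts were 3 and 1 of 6 tested, with a median of 0.76, beside 3.19% and 6.19%.

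Members of Cd40-/- Control also differed from those of WT-Control in both directions. Of 3364 genes 222 (6.6%) were past 2-fold higher and 220 (6.54%) lower, with a median of 0.07. TMM scaling changed the plain ratios by -0.19, and the split became 127 higher and 299 lower. Without the Aire-containing members 106 (5.62%) of 1886 genes were higher and 123 (6.52%) lower, with a median of 0.03. No rule gene was past 2-fold, and their median ratio was 0.61, or 0.17 without Aire-containing members.

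Rbp4, Scg2 and Klk1, which encode secreted proteins, led the genes higher in Cd40-/- Control members. Rbp4 was higher by 3.15 (2.68 without Aire-containing members), from 258 to 642 UMIs, with 246 in 1 cell. Scg2 was higher by 3.01 (2.19), from 58 to 144 UMIs in 11 members each, with at most 30 in a cell. Klk1 was higher by 2.64 (2.03), and Isl1 by 1.87 (1.41), from 77 to 83 UMIs on fewer members. Cdkn1c, a cell cycle inhibitor, was higher by 2.11 (4.35), but 237 of its 339 UMIs came from 1 cell. Muc13, a membrane mucin of gut epithelium, went from 41.8 to 183 CPM (1.90 and 1.66), Bace2, a membrane protease of islets, from 37.3 to 158 CPM (1.83 and 1.31), and Cited1 from 44.1 to 200 CPM (1.95 and 2.06). Fam46a (1.95) and mt-Nd4l (1.85) were the others, and mt-Nd4l was also higher in the other cells (82.7 to 279 CPM). Of 4 genes of granule cargo tested 3 were past 2-fold higher, with a median of 1.45, beside 6.6% of all genes tested. In WT-RANKL-Ab members 2 of 3 tested were higher and 1 lower, with a median of 1.11, beside 5.52% and 7.3%. Without Aire-containing members 2 of 2 tested were higher in Cd40-/- Control, beside 5.62%, and 0 of 2 in WT-RANKL-Ab, beside 3.19%.

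Ccl20 and genes of the cell cycle led those lower in Cd40-/- Control members. All 4 cycling genes tested were past 2-fold lower there, beside 6.54% of all genes tested. Ccl20, a chemokine of microfold cells, had 90 UMIs in WT-Control members and 0 in Cd40-/- Control, at least 8.15-fold lower, while the other cells still held 223 CPM. Cks2 and Ube2c, genes of mitosis, had 162 and 2 UMIs (plain log2 ratio -4.46, -7.52 to -2.58) and 80 and 0 (at least 7.25-fold lower), and Mki67 had 54 and 0 (at least 4.89-fold lower). In members without an Aire UMI the ratios of Cks2, Ube2c and Mki67 were -0.43, -0.82 and -0.82 with 10 CPM added, on too few UMIs to be counted. The 6 cycling genes summed to 362, 11.1, 12.5 and 0 CPM in the members, and to 17.8 CPM in the 51 members of WT-Control without an Aire UMI. Most of that difference therefore lay in the Aire-containing members. Olfm4 (56 and 0 UMIs) and Scgb1c1 (64 and 0) were at least 5.07- and 5.80-fold lower. Tff2 and Psors1c2, with 130 and 114 UMIs, had 3 UMIs each in Cd40-/- Control (plain log2 ratios -3.56, -5.85 to -1.98, and -3.37, -5.67 to -1.79). In WT-RANKL-Ab members the 3 cycling genes tested were also past 2-fold lower, beside 7.3% of all genes tested. Ccl20, Ube2c, Olfm4, Scgb1c1 and Psors1c2 had no UMI in them, at least 9.16-, 8.15-, 5.70-, 6.52- and 11.6-fold lower. These genes were thus not lower in Cd40-/- Control alone.

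**Figure D5:**
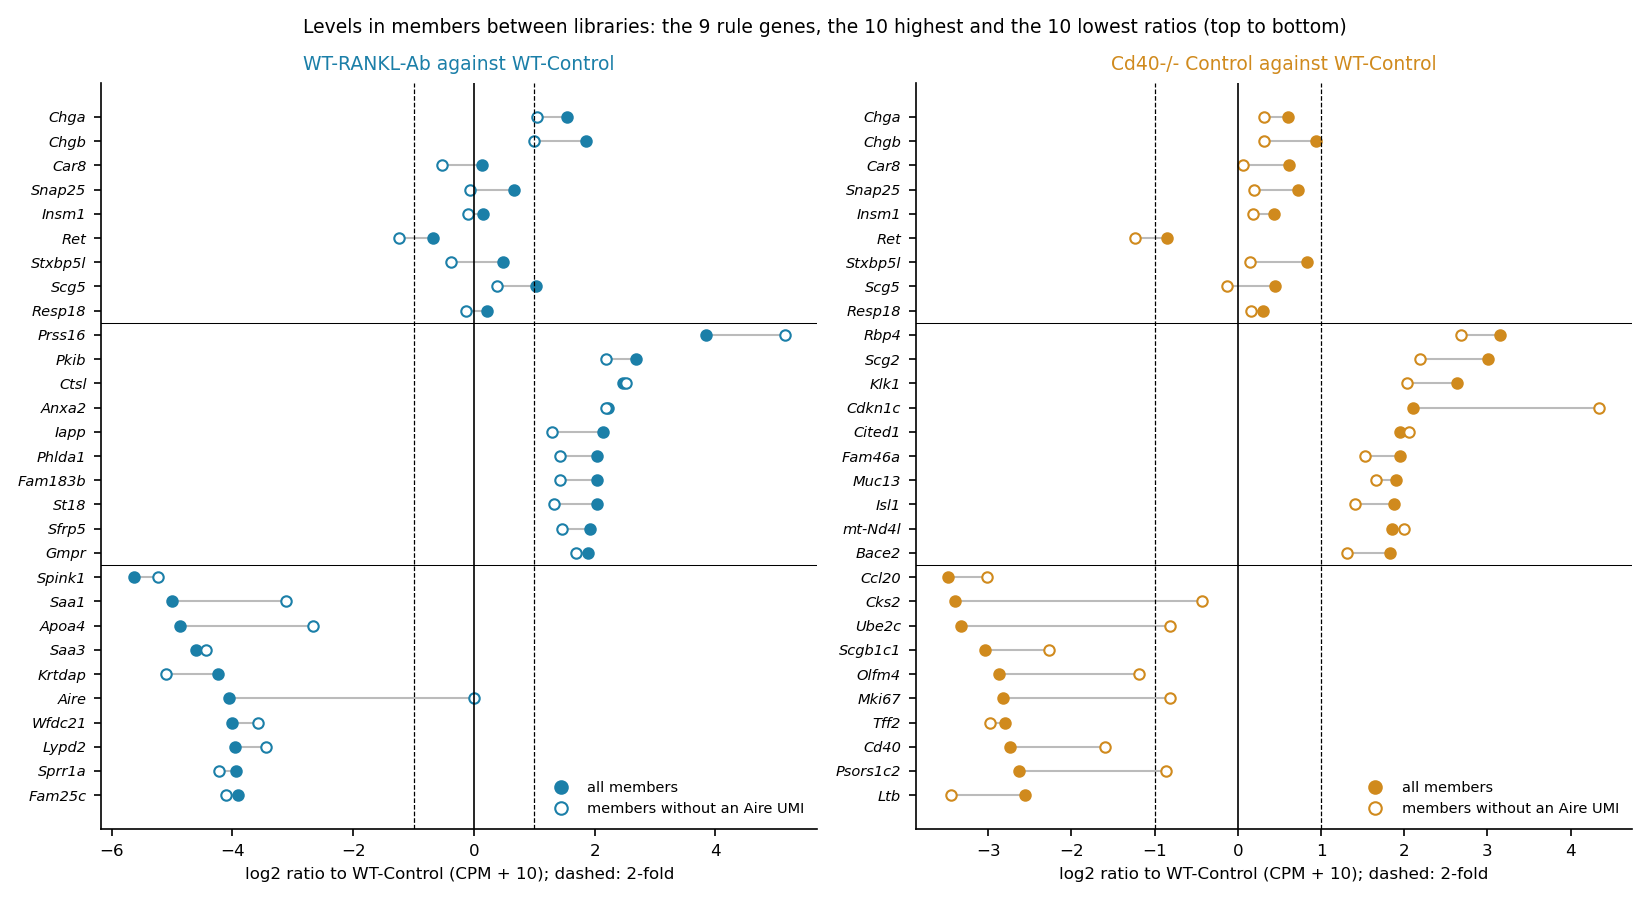
Log2 ratios to WT-Control (10 CPM added) in WT-RANKL-Ab members (left) and Cd40-/- Control members (right) for the 9 rule genes, the 10 highest and the 10 lowest named genes, in all members and in members without an Aire UMI; filled points are all members, open points those without an Aire UMI, grey lines join the pair and dashed lines mark 2-fold. Chga, Chgb and Scg5 lie nearer to 0 in the members without an Aire UMI, where Chga stands at 1.04 and 0.31.

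The receptors that the study removed or starved of ligand were themselves present in members. Cd40 had 50 UMIs in 21 members of WT-Control, 1 in WT-RANKL-Ab and 0 in both Cd40-/- libraries, where the other cells held 5.77 and 4.76 CPM against 110 CPM in WT-Control; counts at the 3' end need not lie in the disrupted part of the gene. Cd40 also stood lower in the other cells of WT-RANKL-Ab, at 28.9 CPM. Tnfrsf11a, the gene of RANK, had 73.5, 62.9, 49.9 and 62.9 CPM in members, on 65, 17, 12 and 2 UMIs, and 87.8, 58.5, 76.7 and 25.5 CPM in the other cells. Its log2 ratios in WT-RANKL-Ab and Cd40-/- Control were -0.20 and -0.48 with 10 CPM added. The counting intervals of the plain ratios, -1.09 to 0.56 and -1.58 to 0.34, span no difference. Tnfrsf11b, osteoprotegerin, the decoy receptor for RANKL, had 53, 1, 14 and 0 UMIs. Ltb, a ligand of the lymphotoxin beta receptor, had 65 UMIs in WT-Control and 15 in WT-RANKL-Ab but 1 in Cd40-/- Control (plain log2 ratio -4.14, -9.47 to -1.61). Of 13 genes of the RANK and CD40 pathway 7 were tested, of which 0 were higher and 2 (Cd40 and Tnfrsf11b) lower in WT-RANKL-Ab, and 0 and 1 (Cd40) in Cd40-/- Control, beside 7.3% and 6.54% lower of all genes tested. Without Aire-containing members 0 of 2 genes tested passed 2-fold in either library. The medians over all members were -0.45 in both, and the NF-kappaB subunit Relb lay at -0.45 in each.

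Genes of MHC class II presentation stood lower as a sum in members of the other 3 libraries than in WT-Control, but few passed 2-fold singly. The 10 genes of MHC class II presentation summed to 39295, 22030, 24083 and 20602 CPM in the members, and to 42652, 28943, 34472 and 21484 CPM in the other cells, so both kinds of cells moved the same way. Cd74, the invariant chain, had log2 ratios of -0.95 and -0.74, or -0.62 and -0.59 in members without an Aire UMI. Of the 10 genes 3 were past 2-fold lower in WT-RANKL-Ab members and 2 in those of Cd40-/- Control, with medians of -0.75 and -0.69, beside 7.3% and 6.54% of all genes tested. H2-DMa and H2-DMb1, which load peptides, had ratios of 0.31 and 0.19 in WT-RANKL-Ab. Without Aire-containing members 1 of 8 genes there was past 2-fold higher (H2-DMa, 1.25) and 1 lower, and Ciita, the class II transactivator, stood at 0.75 in place of -0.50. The 10 genes of the Aire lineage summed to 2839, 692, 927 and 252 CPM in the members. Cd52, a surface glycoprotein, went from 1760 CPM to 229 and 378 CPM, and was also lower among members without an Aire UMI (-3.17 and -2.75). Fezf2, a factor for tissue-restricted genes, stood at 336, 144, 191 and 94.4 CPM, yet its ratios in members without an Aire UMI were -0.09 and -0.41.

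Markers of other cells moved with some of these results. The 7 genes of CCL21-expressing mTECs, among them Ccl21a and Krt14, summed to 6562, 8784, 6565 and 24093 CPM in the members, below the other cells (14395, 26163, 10597 and 26563 CPM). The microfold, tuft and keratinocyte lists summed to 1141, 969, 1023 and 786 CPM, 252, 389, 191 and 62.9 CPM, and 444, 99.9, 183 and 62.9 CPM. Of the 9 microfold genes 0, 3, 1 and 6 had no UMI in the members, and all 101 UMIs of Gp2 in WT-RANKL-Ab members lay in 1 cell. The 9 enterocyte and hepatocyte genes summed to 10825, 8588, 9605 and 3491 CPM, mostly from Reg3g. Lyz2, a myeloid gene, stood at 764, 1140, 765 and 566 CPM while Itgam and Csf1r, which define myeloid cells, had 3 and 9 UMIs in all. Cd79a, a B cell gene, had 31 UMIs in WT-Control members and 0 in those of WT-RANKL-Ab and Cd40-/- Control. The 7 myeloid and B cell genes listed summed to 832, 1151, 798 and 566 CPM in the members. In the other cells they summed to 462, 104, 382 and 10.8 CPM. Immediate-early and heat-shock genes, which respond to tissue dissociation, summed to 2293, 2697, 4029 and 4687 CPM in the members and to 1940, 2370, 2409 and 3914 CPM in the other cells. Of these 8 genes 3 were past 2-fold higher in Cd40-/- Control members, beside 6.6% of all genes tested. Without the Aire-containing members 0 were, beside 5.62%. The part of each of these in the results above was not tested.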

How the data were processed

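Single-cell RNA libraries were prepared from EpCAM+ CD45- TER119- thymic cells, 1 library per condition from 3 pooled mice. The authors trimmed reads with fastp, aligned them to mm10 and counted UMIs with Cell Ranger, and deposited raw UMI counts per gene and barcode. The labels give Cell Ranger 5.1 and the v2 kit, while the published methods and the file headers give another release and the methods another kit.

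Barcodes were kept with 200 or more genes and no more than 25% of UMIs from mitochondrial genes (10218 of 10590, 7164 of 7446, 8591 of 9118 and 2082 of 2099). None of the removed barcodes met the rule. No doublet caller was run, and none is named in the sources used here. Members, gene lists and comparisons were chosen with earlier results of these data known.

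UMIs of the members of a library were summed and expressed as CPM, and log2 ratios were taken after adding 10 CPM. Plain log2 ratios without an addition are given for genes with 1 to 3 UMIs in a library, and a floor of 3 UMIs per library gives the bound for genes at 0. Shares carry exact Clopper-Pearson intervals, and ratios carry conditional binomial intervals at 95%. These cover counting error only, and molecules of a cell are not independent. With 1 library per condition nothing was tested. A gene counts as called past 2-fold between libraries with 50 or more UMIs in the pair, or past 4-fold over the other cells with 50 or more UMIs in WT-Control members. Counts of lists past 4-fold over the other cells use no such minimum and are read against every gene with a UMI in the library. Genes come from the matrices and coordinates from GENCODE M21.

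Named genes were the 25 outside the rule with the highest smallest ratio over the other cells in libraries of at least 20 members, the 10 highest and 10 lowest between libraries with UMIs in at least 10 members of the higher library, and the lists. Some genes of these are not reported here. Genes named beyond these, such as single markers of other cell types, were chosen after their values were seen. Alternatives changed the number of rule genes, the mitochondrial limit, depth, denominator, minimum UMIs, added CPM, scaling, averaging, comparator and the Aire-containing members. TMM factors came from edgeR 4.0.16 in R 4.3.3, intervals from scipy 1.17.1, and the remaining steps from pandas 2.3.3 and numpy 2.4.6 under Python 3.11.15, with plots by matplotlib 3.10.9, and the scripts were tested on simulated data.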

Additional observations from a re-analysis of the deposited data

Results flagged for a closer look

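Members without an Aire UMI had a log2 ratio of shares, RANKL-Ab to Control, of 0.39 (-0.21 to 1.00) in wild-type mice and of -1.46 (-3.80 to 0.21) in Cd40-/- mice. They are given here because the 2 genotypes moved in opposite directions. The difference was not tested, since each condition is 1 library, and both counting intervals span 0. In all members, the ratios were -0.22 and -1.66.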

How the results depend on the processing

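The share of members in WT-RANKL-Ab relative to WT-Control (log2 ratio -0.22) became -1.12 with at least 4 rule genes, and turned to 0.18 when cells were thinned to 2000 UMIs and to 0.39 in members without an Aire UMI. The ratio of Cd40-/- Control stayed between -0.95 and -0.33 and that of Cd40-/- RANKL-Ab between -3.95 and -1.79, except that thinning left 0 of 1813 cells and no value for the latter. Counts of genes past 2-fold higher in WT-RANKL-Ab (190) became 85 with TMM, 26 with 200 or more UMIs, 931 with no minimum, 89 with 6 rule genes, 350 with 4 and 68 without Aire-containing members. Those lower (251) became 70 with 200 or more UMIs, 802 with no minimum, 140 with 6 rule genes, 556 with 4 and 132 without Aire-containing members. In Cd40-/- Control the count higher (222) became 127 with TMM, 33 with 200 or more UMIs, 1104 with no minimum, 119 with 6 rule genes and 106 without Aire-containing members. The count lower (220) became 67, 719 and 123 with 200 or more UMIs, no minimum and no Aire-containing members. Fewer genes were tested with 200 or more UMIs, with 6 rule genes and without Aire-containing members, and more with no minimum and with 4 rule genes. In this order, 3.125%, 4.25%, 3.19%, 5.68% and 4.65% of the genes tested were higher in WT-RANKL-Ab, beside 5.52%. Those lower were 8.41%, 6.69%, 6.19%, 4.89% and 7.39%, beside 7.3%. Cd40-/- Control gave 4.09%, 5.66%, 5.62%, 6.67% and 2.67% higher and 8.30%, 7.19%, 6.52%, 4.34% and 3.21% lower. TMM tested the same genes. The cause of these changes was not tested. Genes past 4-fold over the other cells were 20, 26 and 29 with 200 or more UMIs and 204 and 207 of every gene with a UMI in WT-RANKL-Ab and Cd40-/- Control, and 110 in WT-Control when compared with tuft-rule cells. Single values turned for Pyy in WT-RANKL-Ab (1.22 without Aire-containing members), for Gcg in Cd40-/- Control (-0.89 without its top cell) and for Tspan1 (-0.029 over tuft-rule cells), and the cause was not tested. Of 89 named ratios past 2-fold, 89 stayed past 2-fold on the same side with 1 CPM added and 83 with TMM. With the mean over cells 78 did so, without the top cell 86, and without Aire-containing members 63 of 87. No paired analysis was possible because each condition is 1 library, and for the same reason no replicate could be left out. Depth limits genes with few UMIs most in the 31793 UMIs of Cd40-/- RANKL-Ab members.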
